A study of Mus musculus with 50 samples.

Results

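The Toll-like receptors are the 10 genes Tlr1, Tlr2, Tlr3, Tlr4, Tlr5, Tlr6, Tlr7, Tlr8, Tlr9 and Tlr13, taken by name from 21954 genes and described in polarized macrophages and in amputated mouse digits. RNA was sequenced from 50 samples, 9 macrophage cultures and 41 digits. The macrophages were grown from the bone marrow of female C57BL/6 mice aged 6 to 8 weeks. M1 cells had received 20 ng/ml IFN-γ and 100 ng/ml LPS for 24 hours, and M2 cells 20 ng/ml IL-4 for 24 hours. M0 cells were given basal medium and carry the label baseline (n = 3 in each state). The digits were the distal phalanx (P3) of hindlimb digit 3 of male C57Bl/6 mice aged 9 to 10 weeks, and every digit of this data set was amputated. Non-regenerative (NR) digits were collected at 0, 3, 6, 12 and 24 hours and at 3, 7, 14 and 21 days (n = 3 at each time, and 5 at 7 days), and intermediate digits at 0 and 24 hours and at 14 and 21 days (n = 3 each). The labelled amputation level was 60 to 80% of P3 in the 29 NR digits, of which 17 lay above 67%, and 41 to 55% in the 12 intermediate digits. Unamputated and regenerative digits were not analysed here.

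Toll-like receptors are membrane proteins that recognise molecules of microbes and, for some of them, molecules released from damaged tissue. TLR1, TLR2, TLR4, TLR5 and TLR6 act mainly at the cell surface, on lipopeptides, lipopolysaccharide and flagellin, while TLR3, TLR7, TLR8, TLR9 and TLR13 sit in endosomes and bind nucleic acids. All but TLR3 signal through the adaptor MyD88, TLR3 and TLR4 through TRIF, and both routes lead to NF-kB, interferon regulatory factors and cytokine genes. Macrophages carry most of the family. LPS, a component of the M1 medium, is itself the ligand of TLR4.

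The libraries held 15683424 to 27904773 expected counts in macrophages and 1468749 to 13011782 (median 6835347) in digits, so that 3 counts, taken as the floor, corresponded to 0.1075 to 0.1913 CPM (counts relative to the library total) in macrophages and up to 2.043 CPM in the shallowest digit. The cultures carried macrophage markers (a sum over 7 genes of 7282 to 16337 CPM), while keratinocyte markers summed to at most 0.644 CPM. Digits carried keratinocyte genes, with sums over 5 markers of 29202 CPM or more in every NR digit except at 14 days, where the lowest was 26522 CPM, and their macrophage markers summed to 60.4 to 998 CPM in the NR group. Receptor levels in whole digits therefore cannot separate the number of expressing cells from the RNA in each cell. A 7-day NR digit, digit b, had 10025 genes with a count against a median of 15136 over all digits, and the 14-day NR digit b had 1 count of Tlr3 against 70 and 114 in the other 14-day digits.

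The receptor genes lie on 7 chromosomes (GRCm38, GENCODE M21). Tlr1 (chr5:64924679-64933563) and Tlr6 (chr5:64952031-64960097) are neighbours, 18467 bases apart on the minus strand, and Tlr8 (chrX:167242696-167264329) and Tlr7 (chrX:167304929-167330558) lie 40599 bases apart on the minus strand of X. The third X-linked gene is Tlr13 (chrX:106143204-106160493, plus strand). The others are Tlr2 (chr3:83836272-83841767, minus), Tlr3 (chr8:45395665-45411080, minus), Tlr4 (chr4:66827584-66930284, plus), Tlr5 (chr1:182954788-182976044, plus) and Tlr9 (chr9:106222598-106226883, plus). Transcripts of Tlr1 and Tlr6 shared 380 windows of 65 bases, 12.8% of those of Tlr1 and 10.5% of those of Tlr6, so reads could be split between this pair. The other 8 receptors shared none. Tlr3 overlaps Gm45542, an antisense gene on the other strand, and whether counting used strand is not given in the sources used here.

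The sequences just upstream of the first annotated exon are shown for Tlr5, Tlr2, Tlr1 and Tlr9, receptors whose transcripts differed by more than 2-fold among the macrophage states, and for Tlr3 the 30 bases around a kappaB match, which lie inside an annotated exon of a longer transcript. They are taken from RefSeq promoters on GRCm38.p6 and run 5′ to 3′ on the gene's strand. Capitals mark motif matches.
Tlr5, chr1:182954538-182954787, strand +: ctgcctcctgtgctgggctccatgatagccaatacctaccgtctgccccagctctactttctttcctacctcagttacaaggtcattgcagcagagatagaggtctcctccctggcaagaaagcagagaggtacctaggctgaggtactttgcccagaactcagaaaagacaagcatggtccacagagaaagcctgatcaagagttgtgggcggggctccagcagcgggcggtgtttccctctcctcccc
Tlr2, chr3:83841768-83841858, strand -: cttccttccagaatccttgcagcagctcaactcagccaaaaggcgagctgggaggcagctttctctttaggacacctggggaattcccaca
Tlr1, chr5:64933564-64933808, strand -: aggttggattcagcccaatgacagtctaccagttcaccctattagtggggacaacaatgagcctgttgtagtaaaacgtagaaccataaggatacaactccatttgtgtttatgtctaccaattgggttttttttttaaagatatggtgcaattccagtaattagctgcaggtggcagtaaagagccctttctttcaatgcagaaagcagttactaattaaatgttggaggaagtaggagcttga
Tlr3, chr8:45410572-45410601, strand -: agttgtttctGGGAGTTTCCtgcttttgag
Tlr9, chr9:106222348-106222597, strand +: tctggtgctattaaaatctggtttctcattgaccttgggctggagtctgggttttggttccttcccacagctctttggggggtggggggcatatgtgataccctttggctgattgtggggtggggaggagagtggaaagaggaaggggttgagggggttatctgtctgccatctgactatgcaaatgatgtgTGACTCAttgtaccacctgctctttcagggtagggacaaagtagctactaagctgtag

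Promoters were found for 8 of the 10 receptors, not for Tlr4 and Tlr7, and the 250 bases before each start were searched on both strands for 4 motifs. The kappaB motif GGGANTTTCC, of the kind NF-kB binds, matched Tlr3, 211 to 202 bases before its start, and 0.356% of 32851 promoters held a match. The AP-1 motif TGACTCA matched Tlr9, 58 to 52 bases before its start, against 4.463% of all promoters. The interferon-stimulated response motif GAAANNGAAA matched Tlr6 at a pair of places that overlap each other (2.977% of all promoters). The gamma-activated motif TTCNNNGAA matched Tlr8 and the second promoter of Tlr1, not the one printed (7.02% of all promoters). No receptor window matched more than 1 of the motifs. These matches describe the letters of the windows and were not measured as binding.

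In macrophages all 10 receptors were detected in every library. Levels between genes are given as deposited normalized TPM, which accounts for transcript length. In M0 cells Tlr7, a receptor of single-stranded RNA, and its close relative Tlr8 were most abundant, at 241 ± 1.61 and 203 ± 16.7 normalized TPM (mean ± SD, n = 3 in each state). Tlr13 (130 ± 11.7), Tlr2 (82.5 ± 3.78) and Tlr4 (63.0 ± 6.97) followed. Tlr9 (46.9 ± 1.97) and Tlr1 (46.8 ± 2.82) overlapped, and Tlr6 (36.3 ± 3.51), Tlr3 (12.8 ± 1.24) and Tlr5 (4.72 ± 0.639) came last, each below the gene before it in every library.

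The order was different in the polarized states. In M1 cells Tlr8 (285 ± 6.64 normalized TPM) and Tlr13 (245 ± 5.95) led, Tlr7 (198 ± 14.8) and Tlr1 (184 ± 7.59) overlapped, and Tlr9 (167 ± 3.37), Tlr3 (121 ± 12.1), Tlr4 (92.0 ± 5.35), Tlr6 (48.9 ± 5.43), Tlr2 (25.7 ± 1.40) and Tlr5 (0.786 ± 0.320) followed in that order. Tlr2 thus ranked 4 of 10 in M0 cells and 9 of 10 in M1 cells. In M2 cells the order was Tlr8 (237 ± 9.72), Tlr7 (151 ± 12.3) and Tlr1 (113 ± 5.68), then Tlr13 (81.7 ± 3.57) and Tlr4 (80.1 ± 5.06), whose libraries overlapped. Tlr2 (47.1 ± 7.52), Tlr3 (41.0 ± 9.64), Tlr6 (35.5 ± 4.38) and Tlr9 (35.4 ± 9.85) each overlapped the next, and Tlr5 was lowest (0.436 ± 0.11).

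**Figure D1:**
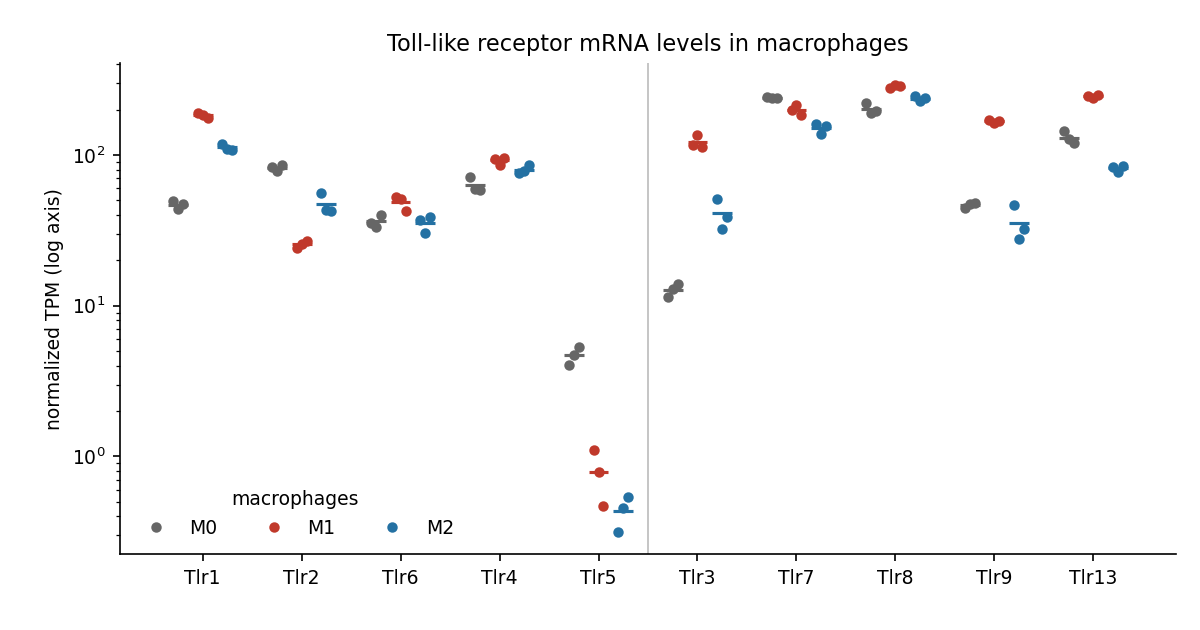
Normalized TPM (log axis) of the 10 receptors in M0, M1 and M2 macrophages, 1 point per library and a bar at the mean of 3. Tlr3 stood at 11.5 to 14 in M0 and 112 to 135 in M1 libraries, and Tlr5 at most 1.1 in all M1 and M2 libraries.

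M1 cells were compared with M0 cells to ask which receptors differ after IFN-γ and LPS. Of the 10 receptors, 3 were called higher (Tlr3, Tlr1, Tlr9) and 2 lower (Tlr5, Tlr2). A call required, in edgeR's quasi-likelihood test, a Benjamini-Hochberg adjusted p under 0.05, and group means of normalized count plus 1 that differed by more than 2-fold. Of all 12939 genes tested, 46.1% were called, so 5 of 10 is near the background. The median log2 fold change was 0.72 over the receptors and -0.09 over all genes, or -0.05 and -0.86 when libraries were scaled by their totals alone.

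Tlr3, the receptor of double-stranded RNA, differed most. Its normalized TPM was 11.5, 12.8 and 14 in M0 libraries and 116, 135 and 112 in M1 libraries, and by counts it was 11.2-fold higher (log2 fold change 3.49, SE 0.07, adjusted p = 2.89e-13 in edgeR). Tlr1, the TLR2 partner for triacylated lipopeptides, stood at 49.4, 43.8 and 47.0 in M0 and at 191, 185 and 176 in M1 (3.94-fold higher, log2 1.98, SE 0.05, adjusted p = 3.38e-12). Tlr9, the receptor of unmethylated CpG DNA, went from 44.7, 47.6 and 48.4 to 170, 164 and 167 (3.59-fold, log2 1.84, SE 0.05, adjusted p = 3.66e-12). For each of these genes the lowest M1 library lay far above the highest M0 library.

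The lipopeptide receptor Tlr2 was lower, at 82.6, 78.7 and 86.3 normalized TPM in M0 and 24.3, 25.6 and 27.1 in M1 libraries (3.19-fold lower, log2 -1.67, SE 0.05, adjusted p = 2.1e-11 in edgeR). Tlr5, the flagellin receptor, was the scarcest of the 10 receptors and fell from 4.07, 4.73 and 5.35 to 1.1, 0.786 and 0.466 (5.96-fold lower, log2 -2.57, SE 0.21, adjusted p = 1.61e-07). Tlr1 and Tlr2, which signal as a pair, therefore moved in opposite directions.

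The other 5 receptors passed the adjusted p but not the 2-fold threshold. Tlr13, the receptor of bacterial ribosomal RNA, had a log2 fold change of 0.92 (1.006 and called without M0 replicate 1), Tlr6, the TLR2 partner for diacylated lipopeptides, 0.91, and Tlr7 -0.27. For Tlr4 (0.54) and Tlr8 (0.46) the sign depended on the scaling, and with library totals alone the values were -0.24 and -0.31. That scaling moved the median of all genes from -0.09 to -0.86 and called 3 receptors higher and 3 lower, with Tlr7 (-1.05) as the added one. The deposited TPM rescaled to the same sum in each library likewise placed M1 below M0 for Tlr8 (means of 212 and 252), Tlr4 (68.4 and 78.0) and Tlr6 (36.3 and 45.0). The M1 and M0 libraries of all 10 receptors did not overlap in TMM-scaled CPM. Overlap on library totals was not examined. How many of all genes were apart in this way was not counted. Of the 12939 genes tested, 11164 had an unadjusted p under 0.05 in edgeR, so differences between these states were general.

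M2 cells, which had received IL-4, were compared with M0 cells. According to the paper, M0 cells were given basal medium, and the cytokines were added in that medium. Cells were collected after 24 hours of treatment, while the labels call M0 baseline. Whether M0 cells had those 24 hours is not stated outright, so cytokine and culture time cannot be told apart with certainty in either comparison with M0. Tlr3 and Tlr1 were again called higher and Tlr5 lower, 3 of 10 receptors, against 22.3% of 12976 genes tested. The median over the receptors was -0.20, against -0.00 over all genes. Tlr3 stood at 51.5, 32.5 and 39.0 normalized TPM in M2 libraries (3.31-fold above M0, log2 1.73, SE 0.14, adjusted p = 6.11e-07 in edgeR), and Tlr1 at 119, 110 and 109 (2.39-fold, log2 1.26, SE 0.06, adjusted p = 8.91e-09). Tlr5 was at 0.315, 0.458 and 0.536, 12.2-fold lower (log2 -3.61, SE 0.19, adjusted p = 2.1e-08). The M1 and M2 comparisons share the M0 libraries.

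Of the receptors not called in M2 cells, Tlr2 (-0.87), Tlr13 (-0.74), Tlr7 (-0.73) and Tlr9 (-0.47) were lower and Tlr4 (0.25) and Tlr8 (0.19) higher by less than 2-fold with an adjusted p under 0.05. Tlr6 had a log2 fold change of 0.06 (SE 0.07, adjusted p = 0.467 in edgeR). Tlr2 was called without M2 replicate 1 (-1.02). In TMM-scaled CPM the libraries of M2 and M0 overlapped for Tlr6 and Tlr9 and were apart for the other 8 receptors. How many of all genes were apart between M2 and M0 was not counted. Of the 12976 genes tested, 9945 had an unadjusted p under 0.05 in edgeR.

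Compared directly, M1 and M2 cells differed in 3 of the 10 receptors, all endosomal and higher in M1, against 48% of 12934 genes called. Tlr9 was 4.65-fold higher in M1 (log2 2.22, SE 0.13, adjusted p = 8.67e-10 in edgeR), with 46.5, 27.7 and 32.1 normalized TPM in M2 libraries. Tlr3 was 3.18-fold higher (log2 1.67, SE 0.12, adjusted p = 6.23e-09). Tlr13 was 2.96-fold higher (log2 1.57, SE 0.05, adjusted p = 1.52e-12), at 247, 239 and 250 in M1 and 83.6, 77.6 and 84 in M2 libraries, but 0.95 on the log2 scale with library totals alone, under the 2-fold threshold.

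Tlr2 was the only one of the 10 receptors with a negative value between M1 and M2 under TMM scaling (trimmed means of log ratios, the scaling of the main test) (-0.90, SE 0.09, adjusted p = 5.73e-07 in edgeR, 1.86-fold). Its normalized TPM in M2 libraries was 55.8, 42.9 and 42.5. With library totals alone it was called (-1.51), Tlr4, Tlr7 and Tlr8 also became negative, and the split was 2 higher and 1 lower. The median over the receptors was 0.69 and over all genes -0.08, which became -0.70 with library totals. Tlr5 was at 0.94 between M1 and M2 and was called without M1 replicate 3 (1.22) or M2 replicate 2 (1.16). The remaining mouse receptors, Tlr11 and Tlr12, were scarce, with means of 0.234 and 0.336 normalized TPM in M1 and 1.74 and 2.38 in M2 cells. Both were called lower in M1 than in M2 (log2 -3.17 and -2.79, adjusted p = 9.05e-07 and 2.37e-07 in edgeR). They were also called lower in M1 than in M0 (-2.20 and -1.81).
Markers of macrophages and of other cells moved between the states too, where 46.1% (M1) and 22.3% (M2) of all genes were called against M0. The 7 macrophage markers summed to 14414 to 16337 CPM in M0, 10056 to 10871 CPM in M1 and 7282 to 7734 CPM in M2 libraries. The 5 fibroblast markers summed to 1513 to 2258 CPM in M0, 835 to 991 CPM in M1 and 2727 to 2992 CPM in M2, with Pdgfra lower in M1 (log2 -2.03) and higher in M2 (1.16) and Dcn higher in both (4.48 and 2.78). The 7 neutrophil markers summed to 152 to 168 CPM in M0, 190 to 210 CPM in M1 and 164 to 193 CPM in M2, with 4 of 6 tested called lower in M1, among them Ngp (-6.26), and Csf3r higher (1.1). The part of these markers in the receptor differences was not tested.

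**Figure D2:**
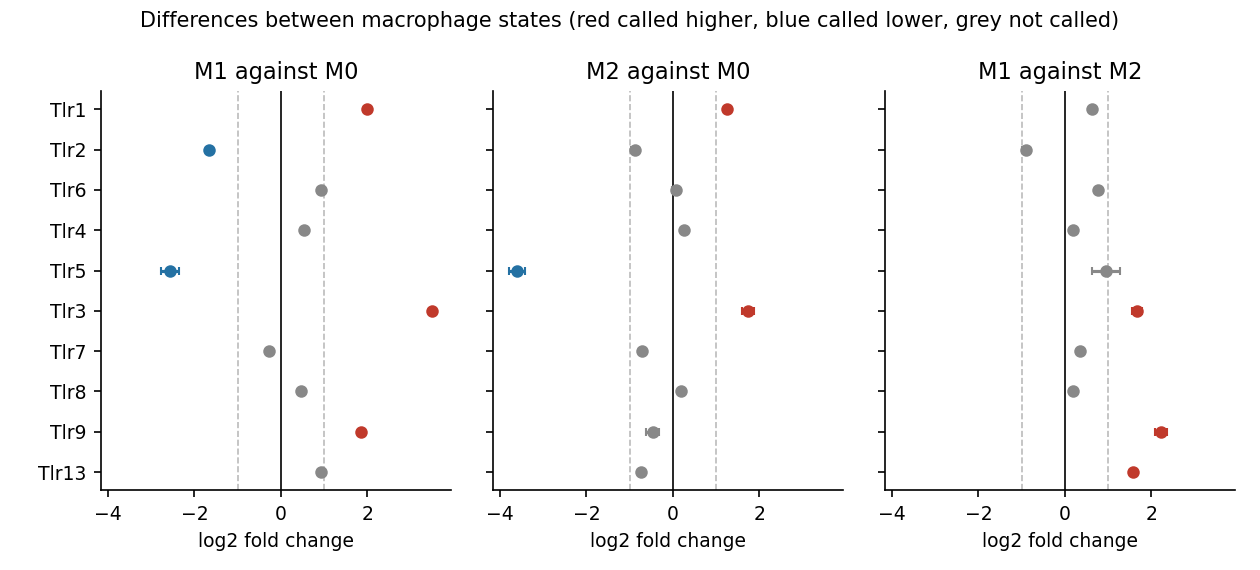
Log2 fold changes (x axis) of the 10 receptors in the 3 macrophage comparisons, with points for the estimates and bars of 1 SE. Tlr3 was at 3.49 and 1.73 against M0, and Tlr2 was the only one of the 10 below 0 between M1 and M2.

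Of 11 coreceptors and chaperones, which work with the receptors, 10 were tested, and 3 were called higher and 1 lower in M1 than in M0, against 46.1% of all genes called. Cd14, the LPS coreceptor, was higher in M1 (log2 2.25, SE 0.08) and lower in M2 (-1.79, SE 0.07), each against M0, and Cd180, a TLR4 homologue, was higher in both (2.16 and 1.34). Cd36, a scavenger receptor, was higher in both too (1.15 and 1.63). Lbp, the LPS-binding protein, was lower in both (-1.41 and -1.48) at low counts. Ly96 (MD-2), the LPS-binding partner of TLR4, reached 0.87 in M1 and -0.51 in M2 and was not called in either. Unc93b1, which carries nucleic-acid receptors to endosomes, was called in neither (-0.18 and -0.12). In M2 the count was 2 higher and 3 lower (22.3% of all genes called). Between M1 and M2 it was 3 higher and 0 lower (48% of all genes called), led by Cd14 (3.95). With library totals alone the M1 count was 2 higher and 4 lower, since Cd36 (0.37) was no longer called and Ly86, the partner of CD180 (-1.63), Cnpy3 (-1.53) and the chaperone Hsp90b1 (-1.10) were, genes chosen after their values were seen. Between M1 and M2 the count was then 2 higher and 4 lower.

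Of 17 adaptors and kinases, all tested, 7 were called higher in M1 than in M0 and 0 lower, a share near the 46.1% over all genes. They were led by the kinase Irak2 (log2 2.77), the TRIF gene Ticam1 (2.31), the kinase Ikbke (2.1) and Myd88 (2.06, SE 0.06). Their median was 0.76, against -0.09 over all genes. With library totals alone 6 were higher and 4 lower, with a median of -0.01 against -0.86 over all genes. In M2 cells 0 of the 17 were called by edgeR, against 22.3% of all genes. Of the 17, 12 had an unadjusted p under 0.05, as did 9945 of the 12976 genes tested, and Myd88 was at 0.33. The median was -0.14. The M1 and M2 cells differed in 7 of 17, against 48% of all genes, all higher in M1 (5 higher and 2 lower with library totals).

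Negative regulators of the pathway were called in both directions, 5 of 8 in M1 (46.1% of all genes called) and 6 of 8 in M2 (22.3%). In M1, 4 of 8 tested were higher than in M0, namely Socs1 (log2 6.30), Tnfaip3, which encodes A20 (3.86), Irak3, which encodes IRAK-M (2.50), and Dok3 (1.46), and Sigirr was lower (-1.27). In M2, 3 were higher, Socs1 (4.71), the ST2 gene Il1rl1 (3.71) and Tnfaip3 (1.52), and 3 lower, Dok3 (-2.16), Sigirr (-2.00) and Irak3 (-1.38). Irak3 and Dok3 were thus higher in M1 and lower in M2. With library totals alone Dok3 fell under the threshold in M1 (0.69), and the count there was 3 higher and 2 lower.

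Of the 11 target genes, 11 were higher in M1 than in M0, with a median log2 fold change of 6.26, among them the chemokine Ccl5 (10.4), the prostaglandin synthase Ptgs2 (9.70) and the chemokine Cxcl10 (7.85). Il6 had a mean normalized count of 1.24 in M0 and 1964 in M1. In M2, 5 of 10 tested were higher, including Ccl5 (4.39), Ptgs2 (3.38) and Cxcl10 (3.06), and 2 lower, Nfkbiz (-2.14) and Il12b (-1.61). Among 7 genes of reported endogenous ligands, 4 were lower in M1, led by the calgranulin S100a9 (-5.56) and the chaperone Hspd1 (-1.69), while in M2 3 were higher, Vcan (1.64), Tnc (1.24) and Hspd1 (1.22). Of all genes tested, 46.1% were called in M1 and 22.3% in M2, each against M0 and in either direction.

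In digits the receptors were present at low levels. Because few reads met each gene, levels are given as TMM-scaled CPM, and between genes per kilobase of the longest coding transcript. Over the 29 NR digits Tlr4 had a median of 1.93 CPM per kb, Tlr2 1.81, Tlr3 1.69, Tlr13 0.830, Tlr5 0.599, Tlr7 0.387, Tlr1 0.385, Tlr6 0.297, Tlr8 0.172 and Tlr9 0.0342, and each gene's range overlapped the next one's. In the 12 intermediate digits Tlr4 (2.35), Tlr3 (1.90) and Tlr2 (1.31) also led and Tlr9 (0.0502) was lowest. The order depended on the measure. By median normalized TPM Tlr3 (6.41) stood above Tlr4 (4.15) in intermediate digits, and Tlr5 (1.48) above Tlr13 (1.43) in NR digits. Tlr9 was at 3 counts or fewer in 20 of 29 NR and 10 of 12 intermediate digits, and Tlr8 in 11 of the NR digits. At these counts a difference in Tlr8 or Tlr9 was not detectable in most comparisons.

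The NR digits at each later time were compared with those at 0 hours to follow the receptors after injury. At 12 hours 7 of the 10 receptors had enough counts to be tested, and 2, Tlr2 and Tlr13, were called higher, against 11.4% of 13075 genes. The median over the 7 was 0.84, against -0.03 over all genes. Tlr2 stood at 5.46, 2.35 and 2.38 CPM (30, 24 and 22 counts) at 0 hours and at 15.0, 20.1 and 28.2 CPM (72, 157 and 148 counts) at 12 hours, a 6.48-fold difference (log2 2.70, SE 0.43, adjusted p = 0.00605 in edgeR). Tlr13 stood at 1.27, 1.57 and 1.95 CPM (7, 16 and 18 counts) and at 19.1, 6.67 and 9.72 CPM (92, 52 and 51 counts), a 7.29-fold difference (log2 2.87, SE 0.49, adjusted p = 0.00802). For both genes each 12-hour digit lay above each 0-hour digit. The labelled amputation level was 64 to 67% in the 3 digits at 12 hours, and 0 of them lay above 67%. At 0 hours it was 62 to 75%, with 1 of 3 above 67%.

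Tlr6 also stood apart, at 1.09, 0.490 and 0.866 CPM at 0 hours and 7.69, 1.79 and 3.05 CPM at 12 hours, without passing the threshold (log2 2.36, SE 0.73, adjusted p = 0.0554 in edgeR). Tlr4 (0.84, SE 0.49), Tlr1 (-0.58), Tlr3 (-0.59) and Tlr5 (-1.12) were not called and their digits overlapped. Without the 12-hour digit b Tlr6 was called (2.74), and without the 0-hour digit a Tlr4 was (1.46).

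The calls for Tlr2 and Tlr13 were lost in a fit with all digits and in a fit with the label date. When all 41 digits entered 1 fit the log2 fold changes were 2.65 and 2.86, but the adjusted p was 0.19 and 0.21 in edgeR. The sample labels also carry dates, whose meaning they do not state, and split the digits into an early and a late set, here called the earlier and the later period. A fit that adds this date period gave 2.10 for Tlr2 (adjusted p = 0.35) and 1.59 for Tlr13 (adjusted p = 0.57). All 12-hour digits carry an earlier date, as does 1 of the 3 digits at 0 hours. Within the earlier period the 12-hour mean was 21.1 CPM for Tlr2 against 5.46 in that digit (3.86 times), and 11.8 CPM for Tlr13 against 1.27 (9.29 times). The later period holds no 12-hour digit. The 0-hour digit of the earlier period carries the same mark, date and foot as the 12-hour digit c, and whether they come from 1 mouse is not stated.

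Markers of other cells moved at the same time, when 11.4% of all genes were called. The 7 neutrophil markers summed to 9.64 to 18.9 CPM at 0 hours and to 61.9 to 147 CPM at 12 hours, and the 4 that could be tested were all called higher: Retnlg (log2 4.89), Csf3r (3.72), Mmp8 (2.30) and Cxcr2 (2.07). The other neutrophil markers, Ly6g, Ngp and Camp, were at 0 in all 12-hour digits and had too few counts to be tested. The 7 macrophage markers summed to 113 to 187 CPM and 179 to 258 CPM, with 2 of 7 called higher, Fcgr1 (3.35) and Itgam (1.68), and with Adgre1 at 0.40 and Csf1r at 0.04. Of 5 keratinocyte markers Krt1 was called lower (-1.66) and Dsg3 higher (3.11), with sums of 31737 to 72358 CPM and 29202 to 37739 CPM, and of 5 fibroblast markers Col1a1 was called lower (-1.02). Their part in the receptor differences was not tested.

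At 24 hours, 0 of 7 tested receptors were called by edgeR (10.7% of 13420 genes were). An unadjusted p under 0.05 was reached by 3 receptors and by 4420 of all genes tested. DESeq2 called 2 receptors, Tlr13 and Tlr2, and its share over all genes is not given here. Tlr13 had 7.60, 1.63 and 18.3 CPM (log2 2.49, SE 0.78, adjusted p = 0.0612 in edgeR) and Tlr2 had 10.8, 4.42 and 16.5 CPM (1.67, SE 0.56, adjusted p = 0.0751). The low digit of the 3 was digit b in both genes, the only one with a later date. Without it, both receptors were called (log2 2.995 for Tlr13 and 2.05 for Tlr2), and Tlr2 also without the 0-hour digit a (2.15). Within the earlier period the Tlr13 mean was 10.2 times that of the single 0-hour digit, and within the later period 0.926 times. For Tlr2 these ratios were 2.50 and 1.87. Neutrophil markers summed to 19.6 to 162 CPM at 24 hours.

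At later times the Tlr13 ratios to 0 hours were again given by label date. At 3 days Tlr13 stood at 14.8, 1.88 and 12.3 CPM (log2 2.52, SE 0.73, adjusted p = 0.209 in edgeR), and was called without digit b (3.02), with ratios to 0 hours of 10.6 in the earlier and 1.1 in the later period. At 7 days the 5 digits ranged from 0 to 20.2 CPM, with ratios of 11 in the earlier and 1.13 in the later period. These ratios rest on 1 digit at 0 hours in the earlier and 2 in the later period, and the difference between periods was not tested. At 14 days they were 6.36 in the earlier and 2.02 in the later period, and in intermediate digits the later ratio was the higher one, 2.86 against 1.51 at 24 hours and 4.43 against 1.75 at 14 days. The macrophage markers of NR digits summed to 138 to 460 CPM at 3 days and 133 to 998 CPM at 7 days, and their part in these values was not tested. At 3 days 0 of 7 tested receptors were called by edgeR (0.723% of 13286 genes). An unadjusted p under 0.05 was reached by 3 receptors and by 1477 of all genes tested. DESeq2 called Tlr13 and Tlr9, and its share over all genes is not given here. Tlr9 was listed at 0 in all 0-hour NR digits and at 0.805, 0.471 and 3.25 CPM at 3 days, and edgeR did not test it. Tlr7 had a log2 fold change of 2.10 (SE 0.69, adjusted p = 0.284 in edgeR).

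No receptor was called at the other times in edgeR. At 3 hours 4 receptors were tested (0% of 12562 genes called, 1362 of them with an unadjusted p under 0.05), and 0 receptors had an unadjusted p under 0.05. At 6 hours 5 were tested (4.85% of 13168 genes called, 3368 with an unadjusted p under 0.05). The 1 receptor with an unadjusted p under 0.05 was Tlr3, which DESeq2 called. Tlr3 stood at 14.2, 7.55 and 11.9 CPM at 0 hours and 3.2, 5.94 and 2.40 at 6 hours (log2 -1.56, SE 0.44, adjusted p = 0.0727 in edgeR). At 7 days 6 were tested (0.0537% of 13046 genes called, 566 with an unadjusted p under 0.05). At 14 days 8 were tested (0% of 13567, 1044) and at 21 days 8 (0.452% of 13712, 987). At 3 hours and at 7, 14 and 21 days 0 receptors had an unadjusted p under 0.05, and DESeq2 called 0.

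A single test over all 9 times in the 29 NR digits found 0 of the 9 receptors tested at an adjusted p under 0.05, while 1100 of 14434 genes passed. The lowest adjusted p was that of Tlr13 (0.535 in edgeR), which became 0.102 when the 7-day digit b and the 14-day digit b were left out, with 3003 of 14722 genes passing.

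**Figure D3:**
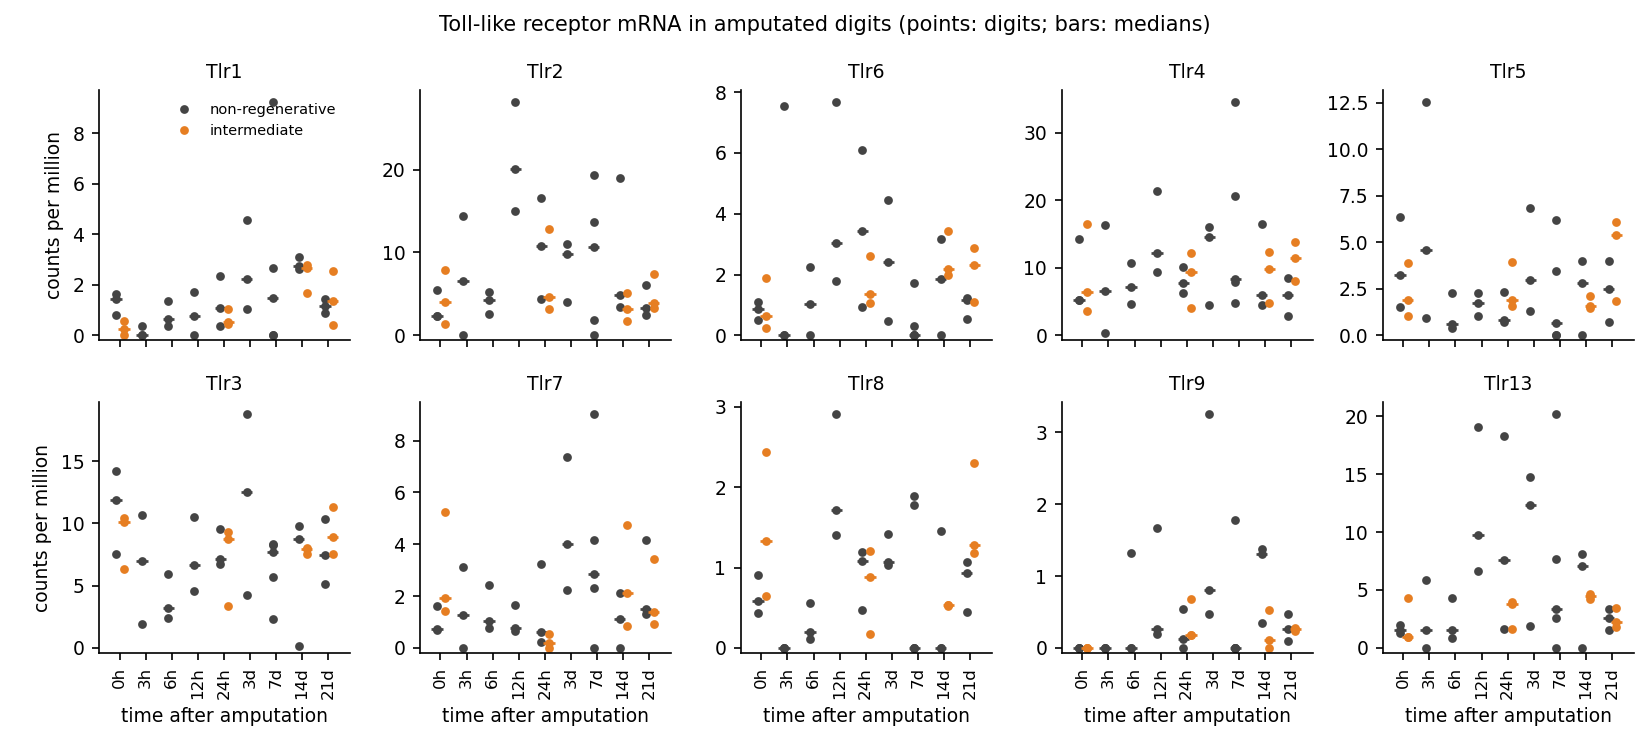
CPM of the 10 receptors in each digit (points) by time after amputation, for NR and intermediate digits, with bars at the medians and a y axis of its own for each receptor. Tlr2 reached 15.0 to 28.2 CPM at 12 hours in NR digits.

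Intermediate digits showed no called receptor in edgeR or DESeq2. At 24 hours 5 were tested (0.0152% of 13172 genes called), at 14 days 8 (1.68% of 13334) and at 21 days 8 (1.39% of 13360). At an unadjusted p under 0.05 were 0, 1 and 0 receptors, and 2034, 1790 and 2212 of all genes tested. The one was Tlr1 at 14 days, at 0, 0.258 and 0.563 CPM at 0 hours and 1.67, 2.78 and 2.65 CPM at 14 days (log2 3.29, SE 1.0, adjusted p = 0.192 in edgeR). Tlr2 in intermediate digits was at 1.34, 3.99 and 7.88 CPM at 0 hours and 12.9, 3.17 and 4.58 CPM at 24 hours, and Tlr13 at 0.943, 0.902 and 4.32 and at 3.94, 1.59 and 3.8 CPM. No intermediate digits of 12 hours were analysed here.

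Intermediate and NR digits of the same time were compared for differences by amputation level, and 0 receptors were called in edgeR or DESeq2. At 0 hours 6 receptors were tested (0% of 13500 genes called, 491 with an unadjusted p under 0.05), and at 24 hours 6 (0% of 13024, 1472). At 14 days 8 were tested (0% of 13421, 270) and at 21 days 9 (0.648% of 13736, 1927). At any of these times 0 receptors had an unadjusted p under 0.05. The log2 fold changes at 24 hours were -1.51 (SE 0.77) for Tlr13, -0.97 (SE 0.74) for Tlr6 and -0.61 (SE 0.61) for Tlr2. The difference between the groups' time effects, tested as an interaction, passed for 0 of 14768 genes at any time in edgeR, receptors included, among which the lowest adjusted p was 0.548 for Tlr2 at 14 days. Tlr7 at 24 hours was the 1 receptor with an unadjusted p under 0.05 in edgeR's interaction test. A p over the threshold does not show that the groups were alike. The intermediate 14-day digit a and the NR 14-day digit c carry the same mark, date and foot in their labels, and whether they come from 1 mouse is not stated. The same holds for the NR 0-hour digit a and 12-hour digit c, and for the NR 3-day digit c and 7-day digit a. It also holds for the intermediate 0-hour digits b and c, which match the NR 12-hour digits a and b in that order.

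Coreceptors, adaptors and kinases were then followed in NR digits at 12 hours, where 11.4% of all genes were called. Cd14 was the 1 of 9 tested coreceptors that was called (log2 4.71, SE 0.74, adjusted p = 0.0059 in edgeR), and it remained called at 24 hours (4.18). Ly96 (0.68) and Unc93b1 (0.12) were not called. Of 16 tested adaptors and kinases, 1 was called at 12 hours, Myd88 (1.35, SE 0.23), which was also called at 6 hours (1.48) and 24 hours (1.10). At 6 hours the sorting adaptor Tirap was higher too (1.1).

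Negative regulators were called higher in 3 of 8 at 12 hours, against 11.4% of all genes called in either direction, Il1rl1 (log2 6.58), Tnfaip3 (2.05) and Irak3 (1.1). Il1rl1 was called at 6 hours (3.82), 24 hours (6.44) and 3 days (4.34) as well, and in intermediate digits at 14 days (2.47). Of the 11 target genes 7 had enough counts to be tested. Of these 6 were higher at 12 hours, including Il1b (6.53), Cxcl2 (6.01), Il6 (5.10) and Tnf. Tnf was at 0 in all 0-hour digits and at a mean of 39.3 normalized counts at 12 hours, so it passed the count filter only through the 12-hour digits. The tested target genes had a median of 5.10 and the tested receptors 0.84. Both medians leave out members with too few counts, and scarce genes could enter through the 12-hour digits alone. The medians therefore do not stand for the whole lists. With library totals alone Tnfaip3 was no longer called (1.93), and the count of negative regulators was 2.

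Genes of reported endogenous ligands were called higher in 3 of 7 at 12 hours, the calgranulins S100a8 (a mean normalized count of 1.10 at 0 hours and 455 at 12 hours) and S100a9 (log2 5.23) and the matrix glycoprotein Tnc (4.11), and Hmgb1 was lower (-1.17). The same 3 were called at 6 hours, 24 hours and 3 days. Of all genes, 11.4% were called at 12 hours, and 4.85%, 10.7% and 0.723% at those 3 times. In intermediate digits Tnc (2.97) and the matrix proteoglycan Bgn (2.15) were higher at 14 days (1.68% of all genes called).

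**Figure D4:**
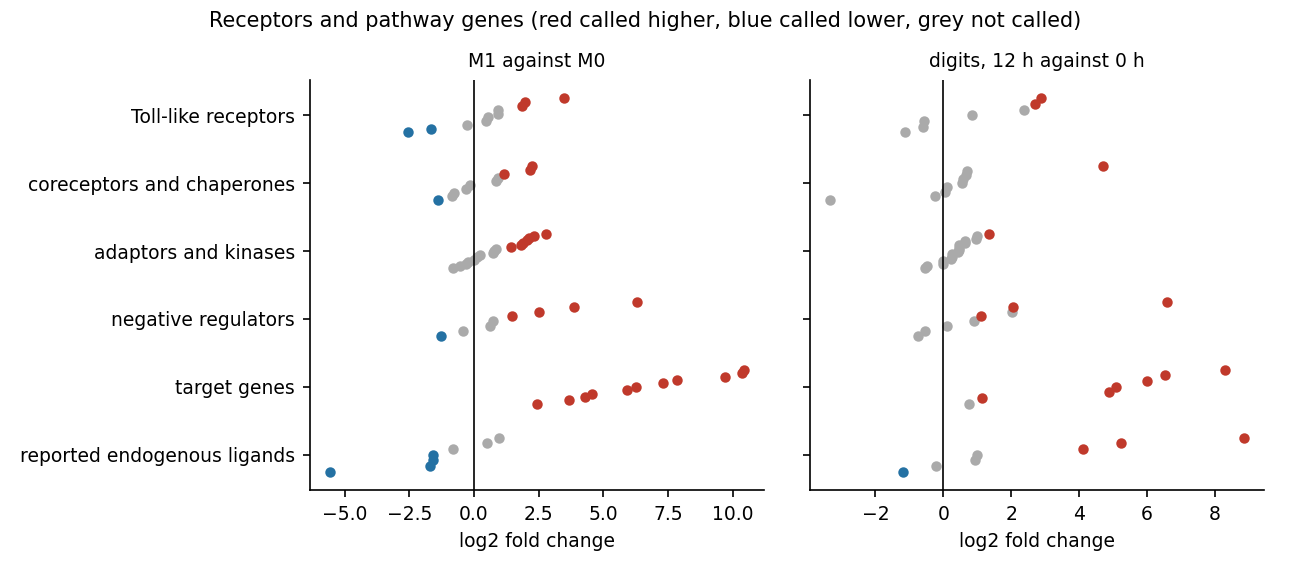
Log2 fold changes (x axis) of the receptors and of the lists of pathway genes, 1 point per gene tested, in macrophages and in NR digits at 12 hours against 0 hours. Target genes lay far to the right in M1 cells (median 6.26) and in digits (median 5.10). The receptors had medians of 0.72 (-0.05 with library totals) and 0.84. In digits these medians cover only members with enough counts, and scarce genes could enter through the 12-hour digits alone.

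The genes whose levels were most like each receptor's were sought over the 29 NR digits by Spearman's rho of normalized TPM among 13660 genes. The digits of a time share that time and differ in depth, so these values are descriptions. For Tlr2 they included Cd14 (0.841) and Itgam (0.841). For Tlr13 they were Clec4a3 (0.838), Csnk2a1 (0.815) and Gpr65 (0.807). The closest were Antxr2 for Tlr6 (0.782), Aida for Tlr4 (0.796), Aak1 for Tlr5 (0.818), Fam149b for Tlr3 (0.759), Rgma for Tlr1 (0.722) and Sptssa for Tlr7 (0.698). The 24 genes in the first 3 places were kept in 10 cases when all 41 digits were used.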

How the data were processed

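RNA was sequenced from polyA-selected libraries of 9 macrophage cultures and 41 digits. The authors mapped reads to mouse genes with Bowtie and estimated expected counts with RSEM 1.2.3, and the deposited tables hold these expected counts, not normalized, per gene and library. The deposited normalized TPM (signal) was scaled by the authors with median-by-ratio factors, separately for digits and macrophages, and its sum differs between libraries. For the digits, 26 gene names altered by a spreadsheet were restored from the transcript list. From there, expected counts were rounded, filtered with filterByExpr, scaled by TMM and tested with edgeR 4.0.16 (R 4.3.3) on the 2 groups of each of 18 comparisons, with Benjamini-Hochberg adjustment over all genes tested and the study's 2-fold rule on normalized count plus 1. EBSeq, which the study used, was replaced by edgeR, and DESeq2 1.42.0 was an alternative. Macrophage levels use normalized TPM. Digit levels use CPM from counts, since TPM of genes with few reads moved with the transcript they were assigned to. The likeness of genes over digits was nevertheless computed from normalized TPM.

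Scripts were tested on simulated counts. The members and gene lists were chosen with earlier results of these data known. Named genes were the 10 receptors, up to 4 called members of each list with the largest log2 fold change, the partners Myd88, Cd14, Ly96 and Unc93b1, and, for each receptor averaging 1 normalized TPM or more in NR digits, the 3 genes most like it, of which 1 is not reported here. Cell type markers, named by their list, and Tlr11 and Tlr12 were added. The labels do not say whether the 3 cultures of a state came from separate animals, so p-values measure the spread between these libraries. Digits were taken from both feet, and whether digits share a mouse was not used.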

Additional observations from a re-analysis of the deposited data

Results flagged for a closer look

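In the 5 NR digits at 7 days a single digit stood far from the others for 3 receptors, by the gap to its nearest neighbour over the range of the group. For Tlr1 it was digit d, at 9.24 CPM, with the next at 2.67. For Tlr6 it was again digit d, at 1.72 CPM, with the next at 0.296. For Tlr9 it was digit a, at 1.78 CPM, with the others at 0. The cut-off flags about 1 in 20 groups of normally distributed values. CPM from a few counts do not follow that distribution, so this rate does not apply here. For Tlr9 the ratio was 1 because all other digits were at 0. The groups of 3 were not examined. Reads of Tlr1 and Tlr6 can be split between these genes, which share 380 windows of 65 bases.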

How the results depend on the processing

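Digit depth limited the tests, with Tlr8 and Tlr9 at or near 0 in many digits. Without the 2-fold threshold, 10 (M1 against M0), 9 (M2 against M0) and 10 (M1 against M2) receptors passed, in place of 5, 3 and 3. Most genes differed in these comparisons. An unadjusted p under 0.05 in edgeR was reached by 11164 of 12939, 9945 of 12976 and 11411 of 12934 genes. A fit with the replicate block called 5, 3 and 3. Deviations of same-numbered libraries from their group means correlated at -0.118 to 0.140. Differently numbered libraries were not compared, so these values do not decide whether the replicate numbers pair the cultures. No call changed under the block. DESeq2 called 5, 3 and 3 in macrophages, and in NR digits 1 at 6 hours, 2 at 24 hours and 2 at 3 days. Its shares over all genes are not given here. At 12 hours the 2 calls became 0 with all digits in 1 fit and 0 with the date period, and the cause was not tested. At 14 days the date period gave 1 call, Tlr9, against none of the 0-hour digits having a count. Without the filter on low counts 1 receptor was called at 24 hours. Leaving out each digit in turn gave 0 to 2 calls at 24 hours (2 without digit b at 24 hours, 1 without digit a at 0 hours) and 0 to 1 at 3 days (1 without digit b at 3 days). Leaving out each macrophage library kept the 5, 3 and 3 calls or added 1. Tlr6 was called at 12 hours by DESeq2 and without the 12-hour digit b. Tlr6 in M2 against M0 turned to -0.0063 without M0 replicate 2 and ranged up to 0.12 as others were left out. With library totals alone, an alternative chosen after seeing the data, the sign turned for Tlr4 (-0.24) and Tlr8 (-0.31) in M1 against M0, and for Tlr4 (-0.43), Tlr7 (-0.26) and Tlr8 (-0.44) in M1 against M2. Ranked by CPM per kb, also chosen later, 6 receptors kept their rank in M1, 3 in NR and 4 in intermediate digits. Over all 41 digits 10 of the 24 most similar genes remained. With every library kept, 209 values of single receptors held their sign and stayed called or uncalled. Another 24 became called, 5 lost their call and 5 turned in sign. The 24 include the values called only because the 2-fold threshold was dropped.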
